A study of Apostichopus japonicus with 12 samples.

Results

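Intestines of the sea cucumber Apostichopus japonicus were compared between warm water low in dissolved oxygen and equally warm water at a higher oxygen level. The combined group (26 °C, 3 mg/L dissolved oxygen) was set against the high temperature group (26 °C, 7 mg/L), each with 3 libraries out of 12 in the series and each sampled after 6 h. Both groups therefore shared the warming, and their labelled difference was the oxygen level. Animals weighed around 100 g per the labels and RNA was extracted per individual. The low oxygen group (18 °C, 3 mg/L) and the control (18 °C), 3 libraries each, entered the model and the test of the interaction. For the control, the design text states 3 mg/L as well, so its true oxygen level is in doubt and groups follow their labels. Members were all gene models with at least 1 FPKM (fragments per kilobase of model and 1e6 fragments of library size) in at least 3 of the 12 libraries, which left 15615 of 26461 models. Of those, 12248 were predicted genes of the deposited annotation, 3367 were models that the table adds outside it (assembled models here), and 9432 carried a Swiss-Prot match. Names come from that match, often in a distant species.

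Animal cells meet unfolding proteins with the heat shock response. Heat shock factor switches on small heat shock proteins, which hold unfolding proteins, and HSP70 with its DnaJ (HSP40) partners, which refold them. BAG3 links HSP70 and small heat shock proteins to autophagy. Low oxygen is sensed mainly through prolyl hydroxylases (EGLN), which mark the hypoxia-inducible factor HIF-1 alpha for destruction when oxygen is plentiful, so that this protein can build up without a change in its mRNA. HIF then raises glycolytic enzymes, lactate dehydrogenase and BNIP3 in vertebrates. The sea cucumber intestine is a thin tube of digestive epithelium over connective tissue, muscle and nerve, bathed by coelomic fluid with coelomocytes.

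The 6 libraries held 9.153 to 10.121 in units of 1e6 recovered fragments. Combined 1 and combined 3 stood apart. The library size behind their FPKM was 0.529 and 0.526 of the fragment total, against 0.935 in combined 2 and 0.948, 1.07 and 1.58 in the high temperature libraries. The 10 most abundant models took 44.0%, 30.6% and 43.8% of fragments in combined 1, 2 and 3, against 41.1%, 29.1% and 22.7% in high temperature 1, 2 and 3. Across genes, libraries correlated at 0.735 to 0.792 within the combined group, 0.812 to 0.838 within the high temperature group and 0.741 to 0.827 between them (Pearson r; genes are not independent replicates). Digestive enzymes, which mark the labelled tissue, summed to 3392 to 7012 FPKM in combined libraries and 2005 to 3176 FPKM in high temperature libraries, and 6 of their 72 models were at 0 in all 6 libraries. As a share of fragments they took 0.655% to 1.24% in combined libraries and 0.662% to 1.63% in high temperature libraries, which overlap. Whether the animals were kept in separate tanks is not labelled, so p-values measure only the spread between these samples. In bulk tissue, fewer cells of a type and less RNA per cell cannot be told apart.

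Between the warm groups a short list of genes rose with low oxygen and fewer fell. At an adjusted p under 0.05 (limma on log2(FPKM + 1), Benjamini-Hochberg over all 15615 models), 32 models (0.205%) rose and 2 (0.0128%) fell. Of the 13 that rose with a Swiss-Prot match, 4 belong to the heat shock system (a small heat shock protein, an HSP70, DNAJB4 and BAG3), 1 to protein targeting at the endoplasmic reticulum (ER), 1 to the glutathione cycle, 1 to the lysosome and 1 to a sulfotransferase-like family, and 5 matched retroelement polyproteins. The other 19 had no match, 2 of them with a protein domain. In each of the 34 models the 3 combined libraries did not overlap the 3 high temperature libraries, which held for 776 models (4.97%) in the higher direction and 707 (4.53%) in the lower. At an unadjusted p under 0.05, 604 models (3.87%) were higher and 434 (2.78%) lower, 1038 in all, against 781 that chance alone would give. Under alternatives with the same 15615 models this total ran from 734 with library weights to 2465 after rescaling to equal totals. With only the 6 libraries of both groups it was 747, so an excess over 781 depends on the fit. All differences are on the log2(FPKM + 1) scale, which understates those of low genes. An exact permutation test of 3 libraries against 3 cannot go below p = 0.1, so single genes rest on the shared estimate of spread. With the spread estimated from only the 6 libraries of both groups, 2 calls were left, the overlapping pair of unnamed models on chromosome 10 described further on. Limma voom on recovered fragments called 23 higher, all among the 32, and 0 lower. After rescaling to equal totals 16 rose and 6 fell, so 72.7% of calls were higher, against 94.1%. Without combined 3, 65 rose, and without high temperature 3, 21 rose. The number that fell was 6 without combined 2, 1 without high temperature 1 or 3, and 0 without high temperature 2. Of the 34 calls, 21 passed with each of the 6 libraries left out in turn.

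**Figure D1:**
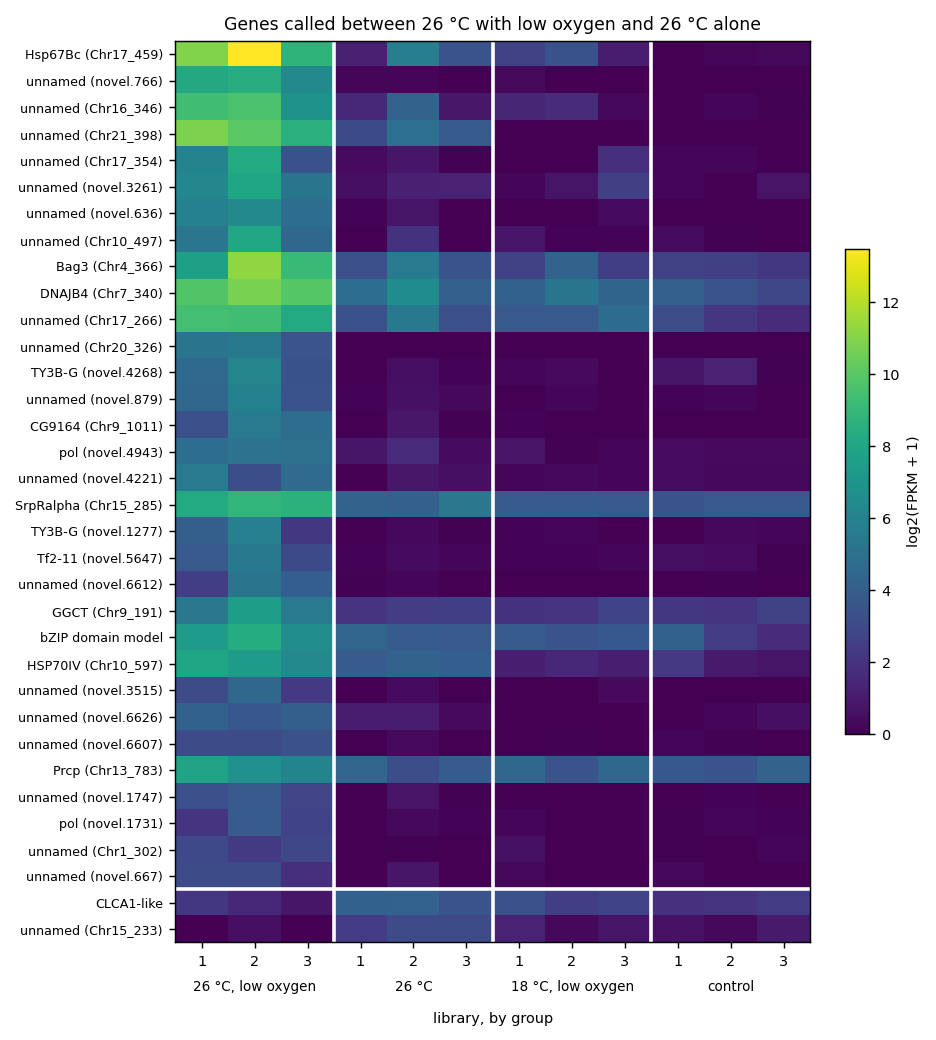
Level of each of the 34 called models (rows, by symbol or model number) in the 12 libraries (columns, 3 per group), as log2(FPKM + 1). All rows share 1 color scale that starts at 0, so models of low level look darker throughout. In the upper 32 rows each of the 3 combined libraries at the left is above every high temperature library beside them. In the lowest 2 rows each is below.

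Among the small heat shock proteins, the gene that rose was Hsp67Bc on chromosome 17 from 15153511 to 15155157, model evm_TU_Chr17_459, in 1 exon, named after a fly small heat shock protein (coordinates as in the deposited table, genome build not given in the sources used here). It measured 1957, 11505 and 431 FPKM in combined 1, 2 and 3, against 1.38, 53.7 and 10.1 FPKM in high temperature 1, 2 and 3. The lowest combined library stood well above the highest high temperature library, and library 2 was the highest of each group. The difference was log2 7.56 (SE 1.18, limma adjusted p = 0.0164), and it missed the threshold without combined 1 (adjusted p = 0.0755), combined 2 (adjusted p = 0.0508), high temperature 1 (adjusted p = 0.0811) or high temperature 3 (adjusted p = 0.0800). The next small heat shock genes on the same chromosome behaved alike in level but missed the threshold. Hspb1, 1308 bases from it, measured 3755, 8189 and 977 FPKM in the combined libraries against 6.73, 414 and 22.6 FPKM in the high temperature libraries (log2 6.20, adjusted p = 0.163). CRYAA, an alpha-crystallin 3683 bases away and the most abundant of the family, measured 11090.2, 22272 and 2516 FPKM in the combined and 72.0, 1013 and 85.5 FPKM in the high temperature libraries (log2 5.52, adjusted p = 0.305). In both genes the groups did not overlap, and high temperature 2 was far above the other high temperature libraries. A second Hsp67Bc gene on chromosome 2 measured 6096, 7644 and 1272 FPKM in the combined libraries against 5.33, 275 and 21.4 FPKM in the high temperature libraries (log2 6.84, adjusted p = 0.0643).

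Over the 7 models with an HSP20 domain, the mark of this family, 1 rose, all 7 differences were positive, 6 were higher without overlap between groups, and the median was log2 5.52. Over all models 0.205% rose, 7635 of 15615 were positive, 4.97% were higher without overlap, and the median was log2 -0.01. Their summed level was 24195, 51112 and 5432 FPKM in the combined libraries and 247, 2322 and 279 FPKM in the high temperature libraries. The least of the combined libraries exceeded the most of the high temperature libraries. Members differed in size: CRYAB was at log2 1.70 and l(2)efl, a fly small heat shock homolog, at 1.04, each short of the threshold with adjusted p = 0.657 and 0.708. The list was drawn up after these values were known, so its count describes the family only. In the earlier small heat shock list, chosen by name, 1 of 8 tested genes rose and all 8 differences were positive. There, 6 were higher without overlap and the median was log2 3.61.

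In the HSP70 family 1 of 13 tested genes rose, where 0.205% of all models did. HSP70IV on chromosome 10 from 19802927 to 19809514, model evm_TU_Chr10_597 (named after a sea urchin HSP70, 2 exons) measured 246, 175 and 80.6 FPKM in the combined libraries, against 13.5, 18.5 and 15.3 FPKM in the high temperature libraries. Its high temperature libraries lay close together, and every combined library was above them. The difference was log2 3.20 (SE 0.48, adjusted p = 0.0120), short of the threshold without combined 1 (adjusted p = 0.0609), combined 2 (adjusted p = 0.0508), high temperature 1 (adjusted p = 0.0811) or high temperature 3 (adjusted p = 0.0721). A model matching acetylcholinesterase overlaps this gene on the opposite strand, and the library kit as described does not mark strand, so their reads cannot be told apart. The same gene stood at 1.17, 1.82 and 1.17 FPKM in the low oxygen libraries and 3.68, 0.970 and 0.713 FPKM in the control libraries.

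The more abundant HSP70IV genes lie on chromosome 2. One, the most abundant HSP70, measured 2620.2, 14773 and 2871 FPKM in the combined libraries against 25.9, 482 and 100.1 FPKM in the high temperature libraries (log2 5.46, SE 1.04, adjusted p = 0.0782). The other measured 1704, 8534 and 5221 FPKM in the combined and 19.01, 429.7 and 55.1 FPKM in the high temperature libraries (log2 5.75, SE 1.10, adjusted p = 0.0782). In both, the groups did not overlap, and the high temperature libraries spread widely among themselves, with high temperature 2 the highest. HSP110, a nucleotide exchange partner of HSP70, measured 357, 753 and 256 FPKM in the combined and 58.4, 144 and 95.9 FPKM in the high temperature libraries (log2 2.12, adjusted p = 0.152), again without overlap. The constitutive HSPA8 on chromosome 10 overlapped between groups, at 1676, 901 and 343 FPKM in the combined and 1096, 1111 and 672 FPKM in the high temperature libraries (log2 -0.22, adjusted p = 0.951). BiP, the HSP70 of the ER, also overlapped, at 1292, 597.1 and 213 FPKM in the combined and 578, 692 and 515 FPKM in the high temperature libraries (log2 -0.11, adjusted p = 0.981). The median over the 13 genes was log2 -0.11, with members at log2 5.75 and members near 0 side by side.

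Of the co-chaperones, DNAJB4 and BAG3 rose. DNAJB4, a DnaJ protein that delivers clients to HSP70 (chromosome 7 from 10970004 to 10982724, model evm_TU_Chr7_340, 2 exons), measured 891, 1773 and 962 FPKM in the combined libraries and 27.9, 94.0 and 16.4 FPKM in the high temperature libraries. All 3 combined libraries were far above every high temperature library. The difference was log2 4.99 (SE 0.60, adjusted p = 0.00266) and passed with each library left out in turn. Bag3 (chromosome 4 from 14049925 to 14064578, model evm_TU_Chr4_366) measured 199.5, 2392 and 542 FPKM in the combined libraries and 8.81, 45.5 and 10.3 FPKM in the high temperature libraries, with combined 2 far above the others. It rose by log2 5.21 (SE 0.84, adjusted p = 0.0216), short of the threshold without combined 2 (adjusted p = 0.0504), high temperature 1 (adjusted p = 0.140) or high temperature 3 (adjusted p = 0.129). Sequestosome-1 (Sqstm1), the autophagy receptor for ubiquitinated proteins, measured 504, 3249.8 and 342 FPKM in the combined and 99.8, 105.03 and 119 FPKM in the high temperature libraries without overlap (log2 2.93, adjusted p = 0.163).

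DNAJB4 was the 1 DnaJ gene of 35 tested that rose, and the list median was log2 0.11. Bag3 was the 1 gene of 16 in the HSP90 and co-chaperone list, at a median of 0.41. Over all models 0.205% rose. HSP90-beta, the main cytosolic HSP90, overlapped between groups at 1969, 2587 and 836 FPKM in the combined and 773, 2455 and 802 FPKM in the high temperature libraries (log2 0.49, adjusted p = 0.867). The HSP90 partners AHSA1 and STIP1 overlapped as well, at log2 0.90 and 1.10. None of 10 chaperonin genes passed (1 higher at an unadjusted p under 0.05, median log2 0.42). Heat shock factor itself (hsf1) was at 1.06, 2.05 and 4.15 FPKM in the combined and 3.03, 3.11 and 3.30 FPKM in the high temperature libraries (log2 -0.38, adjusted p = 0.857).

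**Figure D2:**
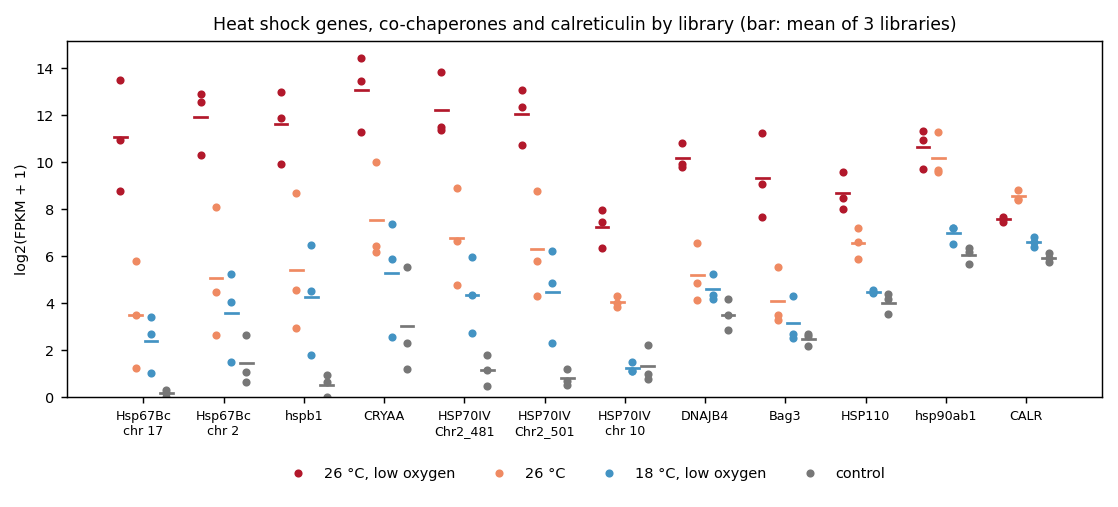
Heat shock genes, co-chaperones and calreticulin as log2(FPKM + 1) in each library (points) with the mean of 3 libraries (bar), for the combined, high temperature, low oxygen and control groups from left to right within each gene. Small heat shock and HSP70IV genes and DNAJB4 show combined libraries above all others, while hsp90ab1 overlaps between the warm groups and CALR lies lower in the combined group.

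At the ER, 1 gene rose, the signal recognition particle receptor subunit alpha (SrpRalpha), the GTPase that docks ribosomes making secretory proteins at the membrane (chromosome 15 from 8964154 to 8980055, model evm_TU_Chr15_285, 15 exons). It measured 306, 466 and 411 FPKM in the combined libraries, against 18.7, 16.7 and 40.1 FPKM in the high temperature libraries. The 3 combined libraries lay close together, far above the highest high temperature library. The difference was log2 4.004 (SE 0.37, adjusted p = 0.000399), and it passed with each library left out. Its partner subunit SRPRB overlapped between groups, at 14.3, 8.70 and 8.77 FPKM in the combined and 17.9, 8.42 and 10.2 FPKM in the high temperature libraries (log2 -0.15). Ostc-b, a subunit of the complex that attaches N-linked sugars, measured 137, 108 and 119 FPKM in the combined and 38.8, 33.8 and 31.4 FPKM in the high temperature libraries without overlap, yet missed the threshold (log2 1.78, adjusted p = 0.0877).

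SrpRalpha was the 1 gene that rose of 30 in a list of ER targeting, translocation and N-glycosylation, drawn up after the values were known, with a median of log2 0.37. Over all models 0.205% rose. None of the 30 ER stress and folding genes passed, 11 were positive, and 1 was higher and 2 lower at an unadjusted p under 0.05 (median log2 -0.21). Calreticulin, a calcium-binding lectin chaperone, measured 172, 204 and 188 FPKM in the combined and 341, 335 and 456 FPKM in the high temperature libraries without overlap (log2 -0.99, adjusted p = 0.518). Protein disulfide isomerases PDIA4 and PDIA6 overlapped between groups, at log2 -1.03 and -1.19.

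Other named genes that rose serve metabolism. GGCT on chromosome 9 from 4131820 to 4144939, model evm_TU_Chr9_191, gamma-glutamylcyclotransferase of the glutathione cycle, measured 39.2, 185 and 46.0 FPKM in the combined libraries and 3.18, 4.55 and 4.76 FPKM in the high temperature libraries. Combined 2 was well above the other combined libraries, and all 3 were far above the high temperature libraries (log2 3.79, SE 0.52, adjusted p = 0.00610). A second GGCT model 3341 bases away on the same strand measured 8.25, 41.8 and 2.19 FPKM in the combined and 0.439, 0.876 and 0.209 FPKM in the high temperature libraries without overlap (log2 2.87, adjusted p = 0.274). Of the 4 models in this enzyme family, a list drawn up after the values were seen, the others did not pass. Chac1, which breaks down glutathione itself, measured 75.6, 32.2 and 12.3 FPKM in the combined and 6.88, 9.10 and 2.56 FPKM in the high temperature libraries without overlap (log2 2.30, adjusted p = 0.460). The related chac2 was lower without overlap, at 3.04, 4.001 and 2.38 FPKM in the combined and 6.47, 7.68 and 6.73 FPKM in the high temperature libraries (log2 -0.96, adjusted p = 0.584).

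Prcp, a lysosomal carboxypeptidase that cuts after proline, measured 235.8, 111 and 66.8 FPKM in the combined and 20.3, 8.53 and 14.1 FPKM in the high temperature libraries (log2 3.07, SE 0.51, adjusted p = 0.0289). Its groups did not overlap, but the call was lost without combined 1 (adjusted p = 0.0970), combined 2 (adjusted p = 0.0701), high temperature 1 (adjusted p = 0.0603), high temperature 2 (adjusted p = 0.145) or high temperature 3 (adjusted p = 0.125). CG9164, a member of the WSCD family with a sulfotransferase domain (chromosome 9 from 29505755 to 29508191, model evm_TU_Chr9_1011), measured 8.95, 45.5 and 27.2 FPKM in the combined and 0, 0.822 and 0.0673 FPKM in the high temperature libraries (log2 4.24, SE 0.50, adjusted p = 0.00218). It was under 1 FPKM in all 9 libraries outside the combined group. Because it passed the filter on low values through that group alone, it had to differ, and nothing is read from its low level elsewhere. An unnamed assembled model 260 bases from it on the opposite strand also rose, at 17.04, 11.6 and 16.1 FPKM in the combined and 1.06, 1.07 and 0.280 FPKM in the high temperature libraries (log2 3.16, adjusted p = 0.00132).

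Among transcription factors, a predicted gene with a basic leucine zipper domain on chromosome 2 from 32969036 to 32976198, model evm_TU_Chr2_1095, rose. It measured 169, 327 and 101 FPKM in the combined libraries and 19.97, 12.99 and 12.6 FPKM in the high temperature libraries (log2 3.49, SE 0.59, adjusted p = 0.0306). All combined libraries were above all high temperature libraries, but the call was lost without combined 1 (adjusted p = 0.104), combined 2 (adjusted p = 0.106), high temperature 1 (adjusted p = 0.0887), high temperature 2 (adjusted p = 0.135) or high temperature 3 (adjusted p = 0.168). Its neighbour 22532 bases away, singled out after its values were seen, matches v-Fos, a member of the AP-1 family of factors. That gene measured 232, 159 and 81.0 FPKM in the combined and 26.7, 36.5 and 16.2 FPKM in the high temperature libraries without overlap (log2 2.47, adjusted p = 0.0906). None of the 16 immediate early and stress factors in the list passed, with 1 higher and 1 lower at an unadjusted p under 0.05. JUN, the AP-1 partner of Fos, overlapped between groups (log2 1.02), while CEBPB, an acute-phase factor, measured 733, 2105 and 605 FPKM in the combined and 421, 363 and 337 FPKM in the high temperature libraries without overlap (log2 1.39, adjusted p = 0.521).

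Retroelement models made up 5 of the 32 that rose. Retroelements with long terminal repeats (LTR) encode Gag and Pol polyproteins, with reverse transcriptase and integrase, and copy themselves through RNA. The Pol model on chromosome 4 from 28877190 to 28883978 measured 28.7, 34.6 and 30.7 FPKM in the combined libraries and 0.782, 2.20 and 0.336 FPKM in the high temperature libraries. Its combined libraries were nearly equal and far above every high temperature library (log2 4.04, SE 0.38, adjusted p = 0.000399). Further models overlap it on both strands, so its reads may belong to more than one of them. The Ty3-G model on chromosome 3 from 7556301 to 7563087 measured 23.05, 68.9 and 9.69 FPKM in the combined and 0.0321, 0.407 and 0.0762 FPKM in the high temperature libraries (log2 4.50, adjusted p = 0.00366). A second Ty3-G model on chromosome 12 from 6272056 to 6279095 measured 15.7, 57.9 and 3.49 FPKM in the combined and 0.0337, 0.244 and 0.0600 FPKM in the high temperature libraries (log2 3.89, adjusted p = 0.0371), and this call was lost without combined 1 (adjusted p = 0.127), high temperature 1 (adjusted p = 0.156), high temperature 2 (adjusted p = 0.126) or high temperature 3 (adjusted p = 0.176).

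The remaining ones were a Tf2-11 model on chromosome 6 (log2 3.85, adjusted p = 0.00430) and a second Pol model on chromosome 14 (log2 2.74, adjusted p = 0.0127, lost without high temperature 1 (adjusted p = 0.0842) or high temperature 3 (adjusted p = 0.0721)). In all 5 models combined 2 was the highest library. Of 19 LTR models tested, out of 46 in the table, 5 rose, against 0.205% of all models, 8 were higher without overlap, against 4.97%, and the median was log2 0.36. However, 5 of the 19, among them 3 of the 5 that rose, were under 1 FPKM in all 9 libraries outside the combined group and passed the filter on low values through that group alone, so nothing is read from these counts or the median. Their summed level over all 46 was 159, 489.8 and 86.1 FPKM in the combined libraries and 26.3, 32.3 and 19.6 FPKM in the high temperature libraries. LINE and other elements without long terminal repeats had no call among 7 tested and 0 at an unadjusted p under 0.05 (median log2 0.19). Both lists were drawn up after the values were known, and reads of near-identical copies may be shared among models.

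Of the 32 models that rose, 16 were assembled models and 17 had neither a match nor a domain. The unnamed model with the lowest adjusted p was an assembled model on chromosome 10 from 3184174 to 3190996, at 282, 332 and 80.3 FPKM in the combined libraries, 0.131, 0.118 and 0 FPKM in the high temperature libraries and 0.279, 0 and 0 FPKM in the low oxygen libraries, with no fragment in the control libraries. It rose by log2 7.51 (SE 0.47, adjusted p = 1.99e-05). A model on the opposite strand from 3184035 to 3190999 covers the same stretch and measured 60.2, 80.9 and 28.1 FPKM in the combined and 0.112, 0.708 and 0 FPKM in the high temperature libraries (log2 5.41, SE 0.42, adjusted p = 0.000104). Without strand, reads of these models cannot be told apart. A small predicted gene on chromosome 21 from 11833946 to 11834801, model evm_TU_Chr21_398, measured 1801, 1045 and 371 FPKM in the combined and 7.21, 29.8 and 13.1 FPKM in the high temperature libraries, and no fragment in the other 6 (log2 5.86, SE 0.57, adjusted p = 0.000415). A single-exon predicted gene on chromosome 20 from 10622616 to 10622843, model evm_TU_Chr20_326, measured 35.6, 42.7 and 10.9 FPKM in the combined libraries and had no fragment in any of the other 9, which makes it at least 79.2-fold higher than the floor of 3 fragments over the high temperature group.

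In 19 of the 32 models that rose the mean of the high temperature libraries was under 1 FPKM, against 14.1% of all models tested. Of those 19, 15 were under 1 FPKM in all 9 libraries outside the combined group, 12 of them assembled models. These 15 passed the filter on low values through the combined libraries alone and had to differ, so nothing is read from these counts or from the number of assembled models. Among the 32, combined 2 was the highest combined library in 24, as it was in 5431 of all 15615 models, and combined 3 the lowest in 20, as it was in 5600 of all models.

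Fewer genes fell. A model on chromosome 22 from 16892326 to 16914491, model evm_TU_Chr22_537, with 17 exons, matches CLCA1, a secreted regulator of calcium-activated chloride channels known from mucus-making cells in mammals. It measured 3.61, 1.85 and 0.759 FPKM in the combined and 17.01, 17.7 and 10.5 FPKM in the high temperature libraries, with every combined library below every high temperature library (log2 -2.46, SE 0.42, adjusted p = 0.0327). The call was lost without combined 2 (adjusted p = 0.0875), combined 3 (adjusted p = 0.0595), high temperature 1 (adjusted p = 0.167), high temperature 2 (adjusted p = 0.166) or high temperature 3 (adjusted p = 0.0721). The next gene, 1196 bases away on the same strand and matching the same protein, measured 1.55, 0.705 and 0 FPKM in the combined and 6.38, 6.16 and 11.6 FPKM in the high temperature libraries without overlap (log2 -2.42, adjusted p = 0.101). In the CLCA family, a list drawn up after the values were known, 1 of 13 models fell and the median was log2 0.11. Over all models 0.0128% fell. A low unnamed predicted gene on chromosome 15 from 6631331 to 6643983, model evm_TU_Chr15_233, measured 0, 0.465 and 0 FPKM in the combined and 4.28, 7.76 and 7.91 FPKM in the high temperature libraries (log2 -2.71, SE 0.40, adjusted p = 0.0107), and its call was lost without combined 1 (adjusted p = 0.0533), high temperature 2 (adjusted p = 0.0558) or high temperature 3 (adjusted p = 0.0721).

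Among named genes whose groups did not overlap, those next in order of p in the lower direction missed the threshold. They were picked for lack of overlap, so nothing is read from it. SLC16A8, a transporter of lactate and other monocarboxylates, measured 6.68, 23.5 and 12.9 FPKM in the combined and 52.2, 75.7 and 75.8 FPKM in the high temperature libraries (log2 -2.30, SE 0.45, adjusted p = 0.0906). KLF6, a zinc finger transcription factor, measured 0.530, 2.02 and 1.08 FPKM in the combined and 5.69, 5.17 and 6.97 FPKM in the high temperature libraries (log2 -1.70, adjusted p = 0.209). HPGD, which inactivates prostaglandins, measured 1.81, 1.71 and 4.51 FPKM in the combined and 14.1, 10.996 and 6.94 FPKM in the high temperature libraries (log2 -1.70, adjusted p = 0.332). The rest of this group were the ubiquitin ligase TRIM56 (log2 -1.26), the EGR co-repressor NAB1 (-1.35), the chromatin protein Msl3 (-1.30), the KICSTOR subunit Kptn (-1.25) and NUDT1, which clears oxidised nucleotides (-1.90), with adjusted p between 0.274 and 0.351.

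Oxygen-sensing genes did not pass the test. Among 14 tested, 0 were called, 1 was higher at an unadjusted p under 0.05, 10 differences were positive, and the median was log2 0.09. HIF-1 alpha mRNA measured 547, 401 and 229 FPKM in the combined libraries and 178, 239.6 and 184 FPKM in the high temperature libraries. Combined 3 lay within the range of the high temperature libraries, so the groups overlapped (log2 0.89, 95% interval -0.25 to 2.02, adjusted p = 0.808). The more abundant EGLN1 model, on chromosome 2, measured 81.8, 48.5 and 3.48 FPKM in the combined and 23.1, 41.3 and 11.5 FPKM in the high temperature libraries, and BNIP3, a mitophagy receptor, 51.1, 18.3 and 43.7 FPKM in the combined and 41.4, 32.4 and 14.3 FPKM in the high temperature libraries, both with overlap. Higd1c, of a family that includes hypoxia-inducible mitochondrial proteins, was the 1 gene of the list whose groups did not overlap, at 73.2, 18.1 and 19.4 FPKM in the combined and 6.15, 11.7 and 4.54 FPKM in the high temperature libraries (log2 1.95, adjusted p = 0.577). With 4.97% of all models higher and 4.53% lower without overlap, 1 of 14 says nothing particular about this list.

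Energy genes did not pass the test either. None of 19 genes of glycolysis and lactate metabolism passed (12 positive, 3 higher at an unadjusted p under 0.05, median log2 0.35). L-lactate dehydrogenase (ldha) measured 51.0, 24.9 and 19.1 FPKM in the combined and 22.3, 26.0 and 6.42 FPKM in the high temperature libraries, with overlap (log2 0.85, 95% interval -0.37 to 2.06). Pyruvate kinase (PKM) was the 1 gene of this list without overlap, at 13.6, 21.6 and 18.2 FPKM in the combined and 7.196, 6.47 and 8.27 FPKM in the high temperature libraries (log2 1.16, adjusted p = 0.351). Over all models 4.97% were higher and 4.53% lower without overlap, so 1 of 19 says nothing particular about this list. None of 31 genes of the tricarboxylic acid cycle passed (1 higher and 2 lower at an unadjusted p under 0.05, median log2 0.13), with IDH1 at log2 -1.16 and DLD at 0.71. None of 63 oxidative phosphorylation genes passed, although 52 were positive and 4 higher at an unadjusted p under 0.05 (median log2 0.43), with NDUFB2 at log2 2.25 and COX6C at 1.08.

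Some lists were shifted as a whole without a single call. Cytosolic ribosomal protein genes were positive in 77 of 78 (median log2 0.95), extracellular matrix genes in 51 of 60 (median 0.75) and muscle genes in 13 of 13 (median 1.15). At an unadjusted p under 0.05, 5, 14 and 5 genes of these lists were higher and 0 lower, against 3.87% higher and 2.78% lower over all models. In the ribosomal list only 1 of 78 genes was higher without overlap, a smaller share than the 4.97% of all models. In the matrix list 14 of 60 genes were higher without overlap, against 4.97% of all models, among them COL4A5, a basement membrane collagen, at 370.1, 171 and 217 FPKM in the combined and 92.5, 61.8 and 75.7 FPKM in the high temperature libraries (log2 1.65, adjusted p = 0.235). The collagen crosslinking enzyme loxl3a (log2 1.68) and the matrix protein SPARC (log2 1.45) were others. In the muscle list 7 of 13 were higher without overlap, set against the same 4.97%, with the myosin light chain Myl9 at 444, 304 and 1114 FPKM in the combined and 161, 184 and 113 FPKM in the high temperature libraries (log2 1.82, adjusted p = 0.577).

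These shifts moved with the libraries that stand apart and with the scale. With combined 2 as the only combined library, the median was log2 0.14 for ribosomal, 0.61 for matrix and 0.69 for muscle genes. Rescaling every library to equal totals moved the median of all genes to log2 -0.60. The ribosomal, matrix and muscle medians were then log2 0.08, 0.06 and 0.32, and relative to the shift of all genes they were 0.67, 0.66 and 0.91. Medians of the oxygen-sensing, glycolysis and oxidative phosphorylation lists turned negative at equal totals, at log2 -0.63, -0.41 and -0.45, and relative to the shift of all genes they were -0.04, 0.19 and 0.15. As a share of fragments, muscle genes took 0.369% to 0.464% in combined libraries and 0.301% to 0.393% in high temperature libraries, which overlap. Matrix genes took 1.27% to 1.45% in combined libraries and 0.944% to 1.48% in high temperature libraries, which overlap too. The part of cell makeup, depth or single libraries in these shifts was not tested.

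**Figure D3:**
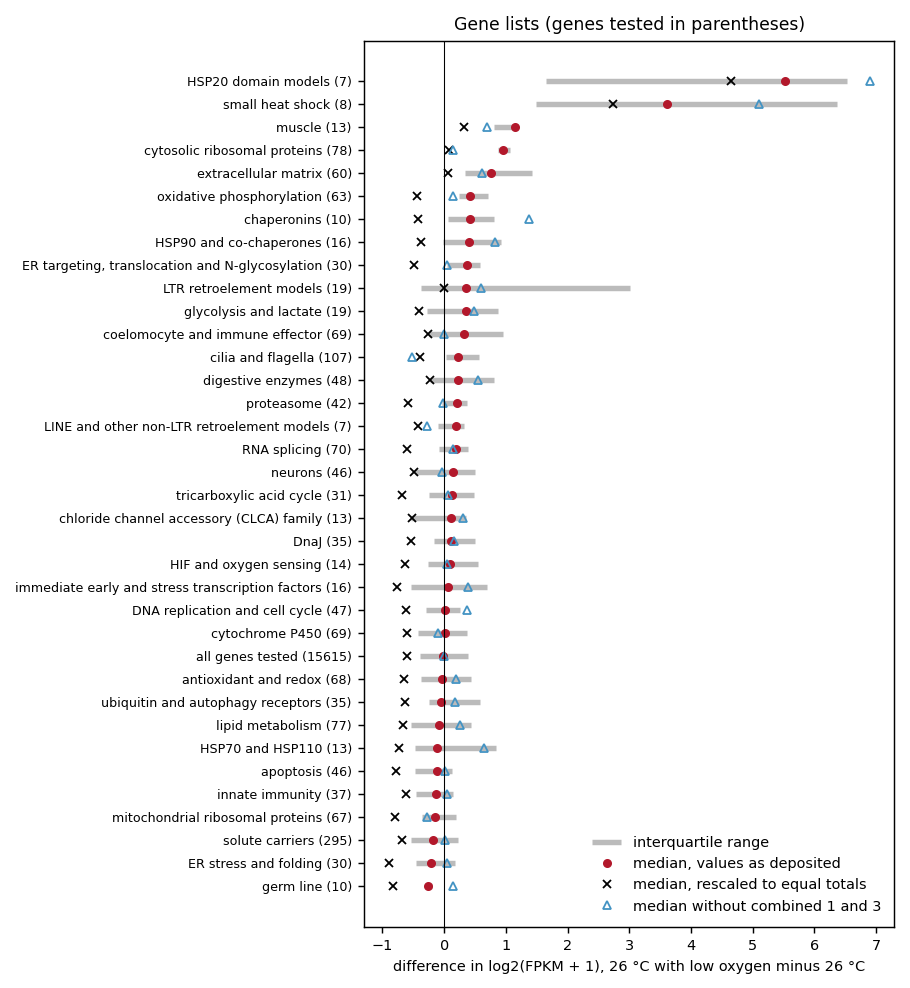
Median difference between the combined and high temperature groups for each gene list with at least 7 genes tested (axis in log2(FPKM + 1)); bars span the interquartile range of the genes, crosses give the median after rescaling to equal totals, and triangles the median with combined 2 as the only combined library. Small heat shock lists lie far to the right in all 3 versions, whereas the ribosomal list moves from 0.95 to 0.14 without combined 1 and 3.

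Markers of other cell types were present in both groups. Ciliary genes summed to 418 to 2211 FPKM in combined libraries and 483 to 722 FPKM in high temperature libraries, with 82 of 107 tested positive, 3 at an unadjusted p under 0.05 and 0 called. Over all models 48.9% were positive. The ciliary median of log2 0.22 turned to -0.33 without combined 1 and stayed positive with any other single library left out. It was -0.53 with combined 2 as the only combined library and -0.39 at equal totals, where all genes stood at -0.60. Coelomocyte and immune effector genes summed to 1051 to 4705 FPKM in combined libraries and 811 to 1341 FPKM in high temperature libraries, and combined 1 was the highest in both lists. Neuronal genes summed to 436 to 1445 FPKM in combined libraries and 389 to 620.3 FPKM in high temperature libraries. Their part in the calls was not tested. With combined 2 as the only combined library, 71 genes rose, 29 of them among the 32, and 0 fell.

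The same genes were also set between the low oxygen and control groups at 18 °C. Of the 34 models, 0 were called between the low oxygen and control groups and 1 had an unadjusted p under 0.05. Over all 15615 models 1 was called at 18 °C and 984 had an unadjusted p under 0.05, so the count of 0 says nothing particular about these genes. Over the 32 that rose at 26 °C the differences at 18 °C ran from log2 -0.54 to 2.21 with a median of 0.02. These groups share no library with the warm comparison. The difference between the effects at both temperatures was tested as an interaction, and 8 models (0.0512%) passed, all positive and all among the 32. Of these 8, 4 were under 1 FPKM in all 9 libraries outside the combined group. They passed the filter on low values through that group alone, so nothing is read from the shared sign. At an unadjusted p under 0.05 the interaction counted 1024 models, and 0 passed in the negative direction. The number of calls moved with single libraries: 18 positive without combined 3, 2 without high temperature 1, 5 without high temperature 2 and 3 without high temperature 3, and voom gave 0 in either direction.

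SrpRalpha was 1 of the 8: it stood at 13.5, 14.1 and 12.8 FPKM in the low oxygen and 10.3, 12.5 and 12.7 FPKM in the control libraries, all below the combined libraries, and its interaction was log2 3.82 (SE 0.53, adjusted p = 0.0181). The Pol model on chromosome 4 was another, at 0.633, 0.0598 and 0.199 FPKM in the low oxygen and 0.344, 0.268 and 0.281 FPKM in the control libraries (interaction log2 4.06, adjusted p = 0.0181). The other 6 were unnamed models, among them the overlapping pair on chromosome 10. Rises of the heat shock genes were not shown to differ between temperatures. DNAJB4 measured 17.1, 37.3 and 19.2 FPKM in the low oxygen and 16.8, 10.4 and 6.32 FPKM in the control libraries (log2 1.07 at 18 °C), and its interaction was log2 3.91 (95% interval 2.07 to 5.76, adjusted p = 0.228). Hsp67Bc on chromosome 17 measured 5.42, 9.51 and 1.07 FPKM in the low oxygen and 0, 0.140 and 0.228 FPKM in the control libraries (log2 2.21 at 18 °C, interaction adjusted p = 0.594). Bag3 had an interaction of log2 4.51 (adjusted p = 0.490) and GGCT of 3.82 (adjusted p = 0.135).

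**Figure D4:**
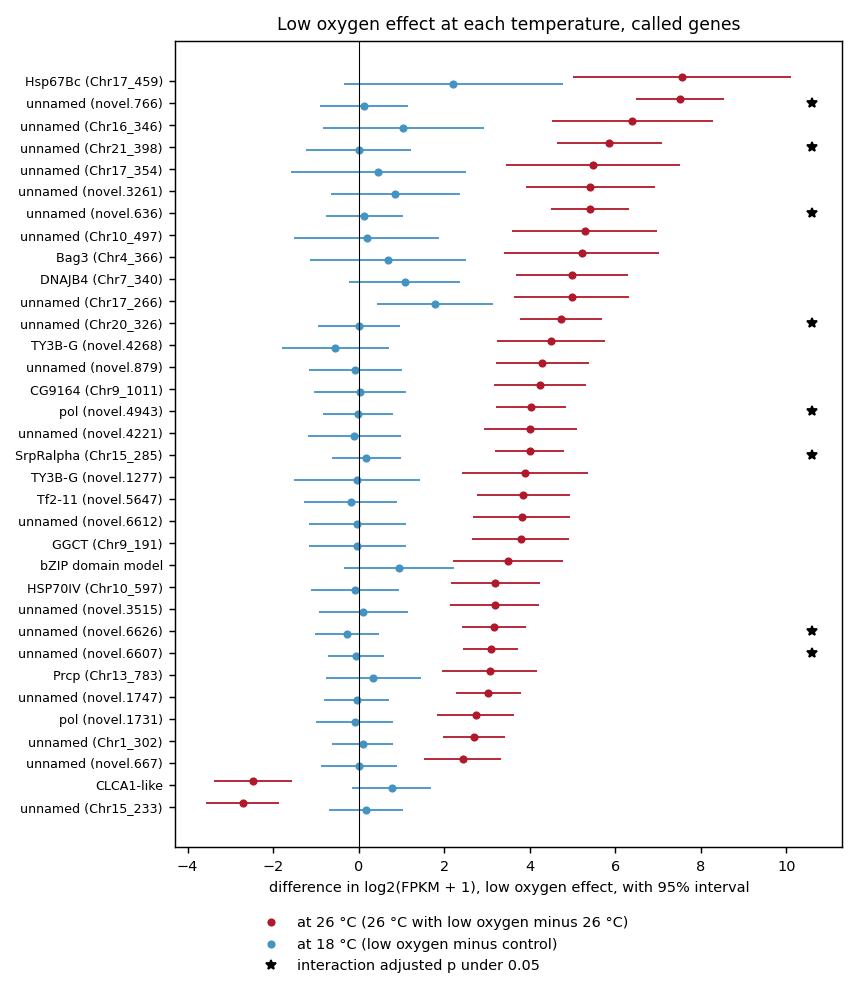
Low oxygen effect on the 34 called models as a difference in log2(FPKM + 1) with its 95% interval, at 26 °C (combined minus high temperature, red) and at 18 °C (low oxygen minus control, blue). Red points lie at 2.43 to 7.56 or, for the lowest 2 models, below 0, blue points lie between -0.54 and 2.21, and stars mark the 8 models whose interaction passed.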

How the data were processed

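RNA from intestine was sequenced on an Illumina HiSeq after mRNA purification, per the labels' protocols. The authors deposited FPKM per gene model; the sources used here name no aligner, counter or genome build. FPKM times model length gave whole fragments for 100% of values (tolerance 1e-06), and the implied library sizes were those of median-of-ratios scaling (12900 genes), so the deposited FPKM had already been scaled between libraries. Fragments per library in the 6 libraries were 9.153 to 10.121 in units of 1e6. Where strand was not recorded and copies are near-identical, reads may be shared between models.

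Values were analysed as log2(FPKM + 1) in R 4.3.3 with limma 3.58.1: group means over all 12 libraries, variance trend, 2-sided tests, Benjamini-Hochberg adjustment. Tables and figures used Python 3.11.15, numpy 2.4.6, pandas 2.3.3 and matplotlib 3.10.9. The fit was also run on simulated counts with the same spread set for every gene. That run checks the code only, and nothing about the calls in these libraries is read from it. Intervals are 95% intervals of the fit. The floor of 3 fragments covers counting error only.

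The members and all gene lists (32, and 6 added after values were seen) were chosen with earlier results of these data known. Named genes were the called, non-overlapping genes with a Swiss-Prot match (at most 15 per direction). These were filled to 10 per direction by p from other non-overlapping genes with a match. Up to 4 members per list by p, sentinel genes and genes called in the interaction were also named. Other genes were named after their values were seen. Alternatives covered pseudocount, filter, replicate block, library subset, voom, scaling, weights and left-out libraries. No sequences were analysed here.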

Additional observations from a re-analysis of the deposited data

Results flagged for a closer look

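The effect of low oxygen differed between 26 °C and 18 °C in 8 models by the limma interaction test (combined minus high temperature, less low oxygen minus control, with Benjamini-Hochberg over all 15615 models). In each of the 8, all 3 combined libraries were the highest of the 12. However, 4 of the 8 were under 1 FPKM in all 9 libraries outside the combined group. Those 4 passed the filter on low values through that group alone and had to be highest there, so nothing is read from this ranking. The interaction was log2 7.39 (SE 0.67, adjusted p = 0.00136) for the assembled model on chromosome 10 from 3184174 to 3190996 and 5.27 (adjusted p = 0.00695) for its opposite-strand partner. SrpRalpha, the ER docking receptor, had 3.82 (SE 0.53, adjusted p = 0.0181), with log2 4.004 at 26 °C and 0.18 at 18 °C. The Pol model on chromosome 4 had 4.06 (adjusted p = 0.0181). The small predicted gene on chromosome 21 had 5.86 (adjusted p = 0.0181), and the single-exon gene on chromosome 20 had 4.74 (adjusted p = 0.0181), both without a fragment at 18 °C. Their fitted values depend on the pseudocount, since groups without fragments enter the fit. On chromosome 9, the assembled model from 26060202 to 26067641 had 3.15 (adjusted p = 0.0181) and the one beside CG9164 had 3.43 (adjusted p = 0.0217). The 18 °C side of each rests on a control whose oxygen level is in doubt.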

How the results depend on the processing

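Over 16 alternatives no called difference changed sign. The counts of genes that rose and fell were 32 and 2. They were 21 and 1 with a pseudocount of 0.1, 31 and 2 with 5, 29 and 2 with no filter on low values, 22 and 1 with a filter at FPKM 5, 2 and 0 with only the 6 libraries, 23 and 0 with voom, 16 and 6 after rescaling to equal totals, and 37 and 0 with library weights. The interaction counted 8 positive and 0 negative models, and 1, 7, 4 and 3 positive under the first 4 of these. It counted 0 positive with voom, 1 positive and 1 negative at equal totals, and 21 and 2 with library weights. Leaving out 1 library gave 21 to 65 that rose, 0 to 6 that fell, 2 to 18 positive and 0 to 2 negative in the interaction. Without combined replicates 1 and 3 the counts were 71 and 0, with 58 and 3 in the interaction, and the lone library was assumed to vary like the other groups. The cause of these changes was not tested. With the replicate number as a block, 41 rose (32 of them among the 32) and 2 fell, and the interaction counted 2. Deviations of same-numbered combined and high temperature libraries correlated at 0.108, 0.0719 and -0.133. For combined 1 the same-numbered library correlated best, and for combined 2 and 3 another did. Whether the numbers pair the samples is not labelled, and these correlations cannot decide it. Counting error limits genes near 0: the fold of the chromosome 20 gene is a bound.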

Other observations

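Genes of digestion and defence, described after their values were seen, included some whose groups did not overlap, none past the threshold. Alpha-amylase (amy), which cuts starch, measured 15.3, 398 and 56.7 FPKM in the combined and 14.2, 1.88 and 3.00 FPKM in the high temperature libraries (log2 3.69, limma adjusted p = 0.331), carried mostly by combined 2. NFKB1, a transcription factor subunit of immune signalling, measured 66.3, 65.1 and 40.4 FPKM in the combined and 24.1, 7.998 and 10.03 FPKM in the high temperature libraries (log2 2.07, adjusted p = 0.206). Toll-like receptor TLR2, a sensor of microbial products, measured 46.6, 94.6 and 25.5 FPKM in the combined and 17.7, 17.2 and 17.3 FPKM in the high temperature libraries (log2 1.42, adjusted p = 0.562). The splicing factor SRSF2 measured 79.4, 75.3 and 133 FPKM in the combined and 40.3, 37.3 and 36.5 FPKM in the high temperature libraries (log2 1.27, adjusted p = 0.351).

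The most abundant models in combined 1 and 3 were major yolk protein, an iron-binding protein that echinoderms store and transport, and the mitochondrial cytochrome oxidase subunit COI. COI and a yolk model were also among the most abundant in combined 2 and in every high temperature library. The first of the 2 yolk models measured 77978, 14951 and 34655 FPKM in the combined and 10636, 6034 and 8676 FPKM in the high temperature libraries (log2 2.06, adjusted p = 0.521). COI measured 30961, 11637 and 64692 FPKM in the combined and 22474, 21329 and 5492 FPKM in the high temperature libraries, with overlap (log2 1.05, adjusted p = 0.820).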
